A study of Homo sapiens with 9 samples.

Results

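p300 peaks on human chromosomes 4, 13 and 18, which carry few genes for their length, were described in PC3 cells that had been irradiated, in the absence or presence of MnTE-2-PyP. All peaks of the 5 deposited lists were taken whose midpoint lay on chromosome 13, on chromosome 18 or on chromosome 4 below 190 Mb (hg19). They numbered 1038 of the 19861 peaks in the series. Untreated list 1 had 144 of 2313 peaks there and untreated list 2 had 94 of 2039. Treated lists 1, 2 and 3 had 220 of 4922, 551 of 10059 and 29 of 528. The limit of 190 Mb leaves out the end of the long arm of chromosome 4. The last peak inside it, in treated list 2, began at 188534573 with a score of 5.94. The first outside, in treated list 1, began at 190520610 with a score of 3.18.

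PC3 is an established line from a metastatic human prostate carcinoma. The untreated group (2 libraries) received no drug and the treated group (3 libraries) 30 µM MnTE-2-PyP, a manganese porphyrin superoxide dismutase mimic, for 24 h. All cells of both groups were given 20 Gy and fixed in 1% formaldehyde 1 h later, so no group shows p300 without irradiation. Values below follow this order of lists, untreated 1 and 2 and then treated 1, 2 and 3. Libraries were described as biological replicates, and 4 input libraries were not analysed here.

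p300 is a histone acetyltransferase that is recruited by transcription factors to active enhancers and promoters. Such elements are denser around genes than in gene deserts. Sequence beside human centromeres is known for satellite repeats and segmental duplications. No hg19 sequence or annotation was used, so no region below is assigned to a gene or checked for repeats.

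The label gene-poor was checked with a RefSeq gene table of GRCh38, used for the number of genes on each chromosome and not for their positions. It lists 770 protein-coding genes on chromosome 4, 338 on chromosome 13 and 270 on chromosome 18. Divided by the span from first to last peak, these are 40.9, 35.3 and 34.6 genes per 10 Mb, the 3 lowest values among the 22 autosomes. Chromosome 19, at 245.9 genes per 10 Mb, was the highest.

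Peak density on these chromosomes was below that of the other 19 autosomes in all 5 lists. It was 3.98 and 2.59 peaks per 10 Mb without the drug and 6.07, 15.2 and 0.801 with it. The other autosomes held 8.57 and 7.83 peaks per 10 Mb without the drug and 18.9, 38.5 and 1.89 with it. The ratio of the densities lay between 0.321 and 0.464, over lists of 528 to 10059 peaks. The mean log2 ratio was -1.38 ± 0.227 (SD, n = 5 lists), a 2.61-fold lower density. An exact two-sided sign-flip permutation test over the 5 lists gave p = 0.063, the smallest it allows, and 0.0714 after Benjamini-Hochberg adjustment over 8 such tests. The low density of some of these chromosomes was already known from the same data when the test was chosen. All lists also came from the same cell line. The p-value therefore describes only how alike the lists were in direction and is no independent support.

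The size of the difference varied by chromosome and by list. Chromosome 13 was the sparsest, with 22 and 15 peaks without the drug and 31, 135 and 8 with it, a mean log2 ratio of -1.88 ± 0.574 (SD, n = 5). Its mean density relative to the other autosomes ranked lowest of the 22. Chromosome 4 held 79 and 46 peaks without the drug and 106, 217 and 18 with it, a mean log2 ratio of -1.44 ± 0.393 (SD, n = 5). Only chromosomes 13 and 6 ranked lower. Chromosome 18 held 43 and 33 untreated and 83, 199 and 3 treated peaks, with a mean log2 ratio of -1.05 ± 0.709 (SD, n = 5). In 4 of the lists its log2 ratio lay between -0.89 and -0.59, and in treated list 3 it was -2.30, a value that rests on 3 peaks. Without that list the mean for chromosome 18 was -0.74. Each of the 3 chromosomes was lower than the other autosomes in 5 of 5 lists (exact permutation p = 0.063 each, adjusted 0.0714). For chromosomes 13 and 18 the low density was known before these tests were chosen, so their p-values describe agreement among the lists only. Low density was not particular to the 3 chromosomes. Mean relative density was 0.289, 0.380 and 0.523 for chromosomes 13, 4 and 18, and 0.323, 0.507, 0.531 and 0.538 for chromosomes 6, 9, 11 and 2. Chromosomes 8, 10, 14, 17, 19, 20 and 21, at 1.65 to 2.35, raised the reference.

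**Figure D1:**
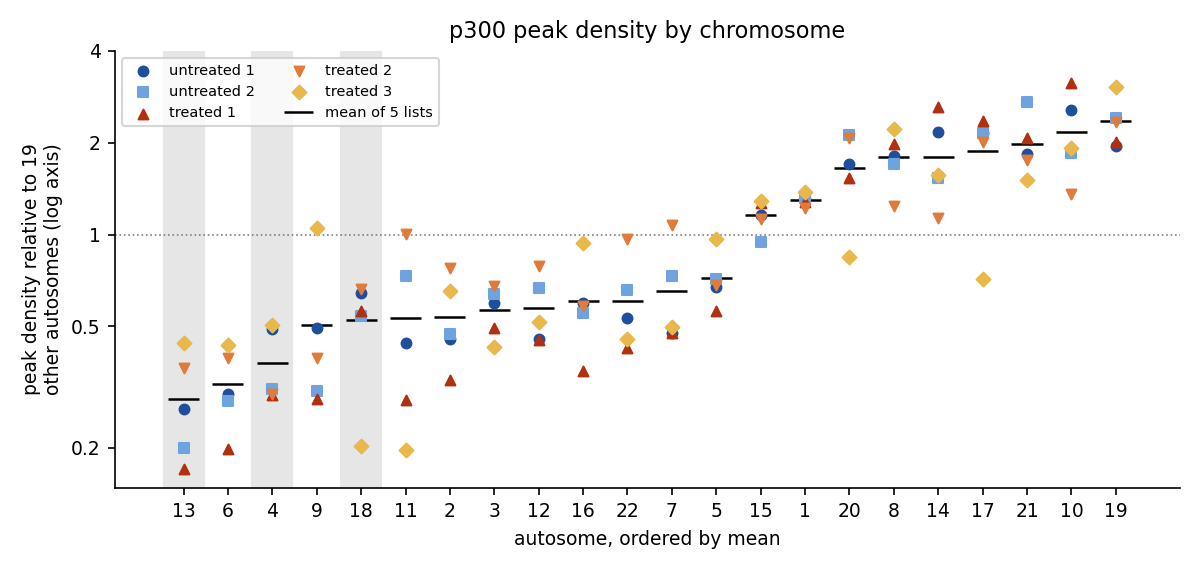
Peak density of each autosome relative to the density of the 19 autosomes other than 4, 13 and 18, on a log axis, with 1 symbol per list and a bar at the mean of the 5 lists. Chromosomes 4, 13 and 18 (shaded) lie below 1 in every list, as do chromosomes 2, 3 and 6 among others, and chromosome 13 has the lowest mean.

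Low gene density alone did not order the chromosomes by peaks. Across the 22 autosomes the mean relative peak density and the number of protein-coding genes per 10 Mb had Pearson's r = 0.47 and Spearman's rho = 0.45, as a description over chromosomes that share the same 5 libraries. Chromosome 18, with the fewest genes per 10 Mb, ranked 5 from the lowest in peaks. Its rank was 12 and 6 without the drug and 13, 6 and 2 with it, and its mean without treated list 3 ranked 9. Chromosomes 8 and 10, at 50.7 and 54.2 genes per 10 Mb, had relative peak densities of 1.79 and 2.17. When these were left out of the reference, the log2 ratio of chromosomes 4, 13 and 18 was -1.19. Chromosome copy number in PC3 cells was not measured, and its part in these densities was not tested.

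The deficit was smallest among the highest-scoring peaks of each list. The scale of the authors' score is not stated, so each peak was placed by its percentile within its own list. Among the lowest-scoring 20% of each list, the density on chromosomes 4, 13 and 18 was 0.208 and 0.243 of that on the other autosomes without the drug and 0.249, 0.276 and 0.0697 with it. The last value rests on 1 peak. In the next 3 steps of 20% the ratio stayed between 0.184 and 0.431, apart from 0.700 in the fourth step of untreated list 1. Among the highest-scoring 20% the ratios were 1.09 and 0.674 without the drug and 0.676, 0.540 and 1.09 with it. The deficit thus eased mainly in the top 20% of the lists, and in untreated list 1 and treated list 3 it reached the density of the other autosomes. Taking 528 peaks from the top of every list, the log2 density ratio was -0.42 in place of -1.38 (exact permutation p = 0.125). For chromosome 4 alone it was -0.24 (exact permutation p = 0.4375). Treated list 3 has 528 peaks in all, so it was not cut. It kept its full-list log2 ratios of -1.24 for the 3 chromosomes and -0.985 for chromosome 4, and both means include them.

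**Figure D2:**
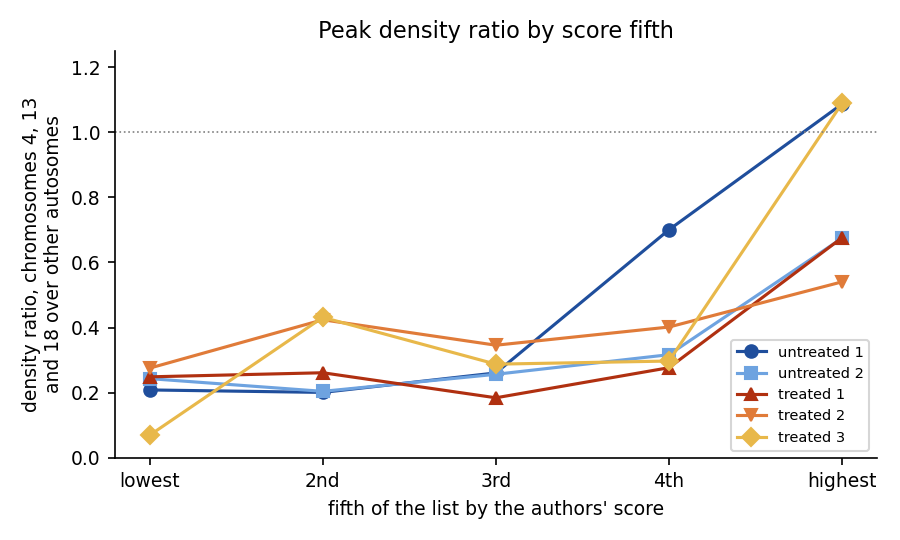
Ratio of peaks per 10 Mb on chromosomes 4, 13 and 18 to peaks per 10 Mb on the other autosomes, for each successive 20% of a list in order of the authors' score, with 1 line per list. The last step is the highest of every line, from 0.0697 to 0.276 in the lowest 20% to 0.540 to 1.09 in the highest.

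Peaks on these chromosomes stood high in their lists. Their median percentile was 75.6 and 73.3 without the drug and 65.0, 54.3 and 74.2 with it. Peaks on the other autosomes had medians of 47.04 and 48.8 without the drug and 47.7, 46.99 and 48.5 with it. The difference averaged 20.7 ± 8.56 percentile points (SD, n = 5), with chromosomes 4, 13 and 18 higher in 5 of 5 lists (exact permutation p = 0.063, adjusted 0.0714). It was 20.9 points without the peaks next to the centromeres and 10.4 at equal list lengths. The latter mean includes treated list 3, which was not cut and kept its difference of 25.8 points. Median scores were 12.2 and 6.89 without the drug and 8.80, 5.16 and 11.2 with it, on each list's own scale.

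The share of peaks in the top 10% of their list showed the same order. In the whole series 9.83% of peaks lay there, with tied scores given their mean rank. On chromosomes 4, 13 and 18 these were 30 of 144 peaks (20.8%, 95% Wilson interval 15.001 to 28.2%) in untreated list 1 and 20 of 94 (21.3%, 14.2 to 30.6%) in untreated list 2. In treated lists 1, 2 and 3 they were 53 of 220 (24.1%, 18.9 to 30.2%), 74 of 551 (13.4%, 10.8 to 16.5%) and 6 of 29 (20.7%, 9.85 to 38.4%). The other autosomes had 8.41% to 9.61%. The difference averaged 11.1 ± 4.16 points (SD, n = 5; exact permutation p = 0.063, adjusted 0.0714). These intervals cover counting error only.

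Chromosomes 4 and 13 had higher median ranks than the other autosomes in all 5 lists, and chromosome 18 in 2. On chromosome 4 the median percentile was 75.4 and 77.4 without the drug and 80.8, 61.7 and 75.5 with it. Chromosome 13 had 83.6 and 74.7 without the drug and 73.9, 52.6 and 66.8 with it. Chromosome 18 had 61.7 and 48.2 without the drug and 40.5, 46.99 and 87.4 with it, the last over 3 peaks. The mean over lists was 74.2 for chromosome 4 and 70.3 for chromosome 13, the highest 2 of the 22 autosomes, and 56.97 for chromosome 18, the ninth. Without treated list 3 the mean for chromosome 18 was 49.4 and ranked 13 of the 22. Across autosomes low density went with high rank, least so in treated list 2. Mean relative density and mean percentile had Spearman's rho = -0.83 across the 22 autosomes, and Pearson's r = -0.79, as a description. By list rho was -0.86 and -0.64 without the drug and -0.74, -0.25 and -0.80 with it, and r was -0.33 in treated list 2. No test set chromosomes 4, 13 and 18 apart from other sparse ones.

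Peak width showed no such order. Its median in bp was 229.5 and 378.5 in untreated cells against 238.5, 307 and 226 in treated cells, and the other autosomes had 235, 374, 233, 323 and 243 in the same order. The mean difference was -5.7 bp ± 10.8 (SD, n = 5), negative in 3 of 5 lists (exact permutation p = 0.375). It was -15.7 bp without the peaks next to the centromeres (exact permutation p = 0.063) and -22.3 bp with 528 peaks from the top of every list (exact permutation p = 0.063).

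Peaks were unevenly placed along the chromosomes. On chromosome 4 the 10 Mb from 40 to 50 Mb, beside the centromere, held 27 and 13 untreated and 34, 24 and 3 treated peaks, the most over the 5 lists together. In treated list 2 the first 10 Mb were fuller, where the lists held 8 and 6 untreated and 22, 47 and 1 treated peaks. The 10 Mb from 30 to 40 Mb held the fewest, with 0 and 1 untreated and 0, 3 and 0 treated peaks. It includes a peak-free stretch of 6.26 Mb, from 32218197 to 38478331, the longest on this chromosome over all 5 lists. Chromosome 13 had its longest peak-free stretch, 6.57 Mb, from 67477857 to 74042855. No 10 Mb of chromosome 13 held fewer peaks than those from 60 to 70 Mb, which overlap it, with 2 and 0 untreated and 1, 3 and 0 treated peaks. On chromosome 18 the longest peak-free stretch ran for 5.59 Mb, from 29306776 to 34895552. The 10 Mb from 30 to 40 Mb there held 2 and 2 untreated and 2, 5 and 1 treated peaks, the fewest on that chromosome.

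The densest parts differed between lists. The first 10 Mb of chromosome 18 held 15 and 11 untreated and 40, 41 and 0 treated peaks, the most on that chromosome. The last 8 Mb, from 70 Mb on, held 6 and 5 untreated and 3, 52 and 0 treated peaks. The end of chromosome 13, from 110 Mb on, held 1 and 2 untreated and 1, 44 and 2 treated peaks. By count it was the fullest of the 10 Mb stretches of that chromosome, through treated list 2 alone. On chromosome 4 the 1 Mb from 9 to 10 Mb held 5 and 1 untreated and 16, 2 and 1 treated peaks, within 151.9 kb (9218311 to 9370176), most of them in treated list 1. A similar small group lay on chromosome 13 between 57715006 and 57747558, with 1 and 1 untreated and 8, 3 and 1 treated peaks.

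The outer 5 Mb of the chromosomes, gene-richer than the interior on many human chromosomes, were pooled, without the short arm of chromosome 13 and with 190 Mb as the end of chromosome 4. They held 17 of 144 and 15 of 94 peaks in the untreated lists (11.8% and 15.96%). In the treated lists they held 36 of 220, 139 of 551 and 2 of 29 (16.4%, 25.2% and 6.90%). The treated mean was higher by 2.28 points, and the groups overlapped (exact two-sided permutation p = 0.8). Without treated list 2 the difference was -2.25 points.

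The share of peaks next to the centromeres was above the share of the span in all 5 lists. Windows were set within 2 Mb of the unsequenced centromere gaps of hg19, taken to whole Mb. These are 47 to 55 Mb on chromosome 4, up to 21 Mb on chromosome 13 and 13 to 21 Mb on chromosome 18. The peak-free stretches across the gaps, 3.11 Mb on chromosome 4 from 49620683 to 52733193 and 3.41 Mb on chromosome 18 from 15345243 to 18755553, lay inside these windows. The first peak of chromosome 13 began at 19184443. The windows make up 4.92% of the span and held 32 of 144 peaks in untreated list 1 (22.2%, 95% Wilson interval 16.2 to 29.7%) and 23 of 94 in untreated list 2 (24.5%, 16.9 to 34.0%). In treated lists 1, 2 and 3 they held 51 of 220 (23.2%, 18.1 to 29.2%), 72 of 551 (13.1%, 10.5 to 16.1%) and 3 of 29 (10.3%, 3.58 to 26.4%). The excess over the share of the span averaged 13.7 ± 6.47 points (SD, n = 5), positive in 5 of 5 lists (exact permutation p = 0.063, adjusted 0.0714).

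The windows of the 3 chromosomes held different shares of their peaks. The window of chromosome 4, 4.24% of its span, held 35.4% and 32.6% of its untreated peaks and, with the drug, 32.1%, 13.8% and 16.7%. The window of chromosome 13, 1.89% of its span, held 0 and 3 untreated and 4, 16 and 0 treated peaks. These are 0% and 20.0% of its untreated and 12.9%, 11.9% and 0% of its treated peaks, above the share of the span in 3 lists. That of chromosome 18, 10.3% of its span, held 4 and 5 untreated and 13, 26 and 0 treated peaks. These are 9.30% and 15.2% of its untreated and 15.7%, 13.1% and 0% of its treated peaks, on either side of the share of the span. The windows and spans of chromosomes 4 and 18 include the unsequenced gaps, where no peak can be placed. On chromosome 18 the peak-free 3.41 Mb across the gap lie inside a window of 8 Mb. The share open to peaks is therefore below 10.3%, and shares without the gaps were not computed. The counts of 0 in treated list 3 rest on 8 peaks of chromosome 13 and 3 of chromosome 18. A count of 0 allows up to 0.568% of its 528 peaks, as much as all of chromosome 18 held in that list. These zeros therefore do not show that the windows lack peaks.

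**Figure D3:**
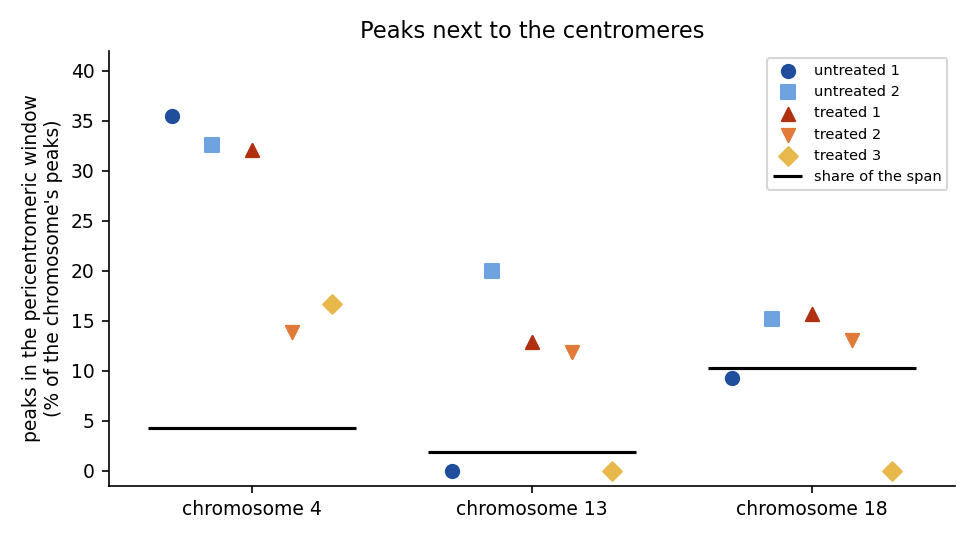
Percentage of each chromosome's peaks that lie within 2 Mb of its centromere gap, with 1 symbol per list and a line at the percentage of the chromosome's span taken by the window. On chromosome 4 all 5 lists lie above the line, from 13.8% to 35.4% against 4.24%, while on chromosome 18 the lists lie from 0% to 15.7% around 10.3%. On chromosomes 4 and 18 the line counts the gap itself, where no peak can be placed.

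On chromosome 4 most peaks of the window lay in 413.6 kb beside the gap on the short arm, from 49207083 to 49620683. This stretch held 26 and 13 untreated and 32, 19 and 3 treated peaks, or 93 of the 1038, and 93 of the 181 in the windows of all 3 chromosomes. With it left out, the windows held 5.08% and 12.3% of the remaining peaks without the drug and 10.1%, 9.96% and 0% with it, against 4.81% of the remaining span. The remaining span still counts the gaps, so the share open to peaks is below 4.81%. Against 4.81% an excess remained in untreated list 2 and treated lists 1 and 2, and was slight in untreated list 1. It was absent in treated list 3, where all 3 peaks lay in the stretch. The other side of the gap, from 52 to 55 Mb, held 2 and 2 untreated and 1, 8 and 0 treated peaks. Merging peaks that overlapped by 1 bp or more gave 39 regions in the stretch, of which 21 were in 2 or more lists (53.8%), against 10.4% of the regions elsewhere on the 3 chromosomes. Peaks here ranked high in 4 of the lists, with median percentiles of 81.2 and 87.4 without the drug and 91.6, 92.9 and 33.7 with it. Their median widths in bp were 301.5 and 553 in untreated cells against 331, 507 and 245 in treated cells.

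Some regions of this stretch were large composites. One from 49330930 to 49332940, 2011 bp wide, was built from 9 peaks of 4 lists and its highest scores were 16.3 and 9.09 for untreated cells against 27.4 and 8.05 for treated lists 1 and 2. A narrower one from 49313687 to 49314199 had 40.6 and 13.7 without the drug and 62.4 and 35.4 in treated lists 1 and 2. The region from 49272617 to 49273737 was held by all 5 lists. It scored 7.77 and 7.82 without the drug and 14.1, 26.1 and 12.6 with it. Of the 24 regions in 4 or 5 lists on the 3 chromosomes, 10 lay in this stretch.

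Sharing between lists was then compared over the whole of the 3 chromosomes. Their 1038 peaks merged into 844 regions, of which 739 were in 1 list, 54 in 2, 27 in 3, 19 in 4 and 5 in all 5. Regions in 2 or more lists numbered 105 (12.4%), where the series as a whole had 10.4%. Those in all 5 lists were 0.592%, against 0.886% in the series. The share of a list's regions found in another list was 46.8% and 39.1% without the drug and 36.2%, 15.3% and 86.2% with it. On the other autosomes these shares were 39.9% and 31.2% without the drug and 25.1%, 13.4% and 82.3% with it. The share was thus higher on chromosomes 4, 13 and 18 in each list. Without the stretch beside the centromere of chromosome 4 it was 39.8% and 30.9% without the drug and 30.9%, 13.3% and 88.5% with it, higher than on the other autosomes in treated lists 1 and 3 alone. Regions of treated list 3 were found in each single other list less often here than on the other autosomes, from 31.0% against 35.8% in untreated list 2 to 69.0% against 71.2% in treated list 2. Without treated list 2, the longest, 67 regions were in 2 or more lists. These shares were not tested, because a region shared by a pair of lists counts in both.

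Untreated lists 1 and 2 shared 26 regions, 18.4% of the 141 in the first and 28.3% of the 92 in the second. Treated lists 1 and 2 shared 59, or 27.1% of 218 and 10.7% of 549. Across the groups, untreated list 1 shared 50 regions with treated list 1 and 50 with treated list 2, each 35.5% of its own. Untreated list 1 and treated list 1 also have a string in their peak names in common. It is taken here as a run identifier, though the labels do not say what it marks. Treated list 3 shared 20 of its 29 regions with treated list 2 (69.0%, and 3.64% of that list), and 9 with untreated list 2 (31.0% and 9.78%). Untreated list 1 thus had more regions in common with treated lists 1 and 2 than with untreated list 2, and fewer, 13, with treated list 3. The partner lists differ in length, however. As a share of the partner's own regions, these were 28.3% in untreated list 2 and 22.9%, 9.11% and 44.8% in treated lists 1, 2 and 3. On the other autosomes untreated list 1 shared 13.8% of its regions with untreated list 2. There it shared 28.1%, 29.4% and 10.8% with treated lists 1, 2 and 3. Shared regions ranked higher than those of a single list in each list, with median percentiles of 86.9 against 63.4 in untreated list 1 and 95.6 against 46.99 in treated list 2. The same held in each list on the other autosomes. There the values were 66.3 against 39.5 in untreated list 1 and 79.6 against 46.99 in treated list 2.

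Every one of the 5 regions common to all lists was isolated and strong, apart from the one beside the centromere. On chromosome 18 at 36225079 to 36225571 scores were 30.4 and 19.5 without the drug and 50.4, 58.3 and 16.3 with it. The nearest other region lay 701.5 kb away. On chromosome 4 at 91109857 to 91110303 they were 25.8 and 19.7 without the drug and 31.7, 83.2 and 16.3 with it, with no other region within 546.6 kb. It was the highest peak of treated list 2 on chromosome 4 and ranked 5 among all peaks of that list. The remaining regions lay on chromosome 4 at 82075334 to 82075717 (14.9 and 9.40 untreated, 18.9995, 17.8 and 14.1 treated) and at 104166563 to 104167085 (20.5 and 21.1 untreated, 50.3, 39.9 and 8.79 treated). All 4 were thus called as p300 peaks in both groups. Without treated list 3, the shortest, 22 regions were held by every list.

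Isolated strong regions were defined as those with a peak in the top 10% of a list and no other region of any list within 100 kb. There were 50 on the 3 chromosomes, 29 on chromosome 4, 13 on chromosome 13 and 8 on chromosome 18. They made up 5.92% of the 844 regions, against 2.23% in the series as a whole. Both parts of the definition were met more often here. Regions alone within 100 kb were 37.9% of the total, against 17.0% on the other autosomes, and regions with a peak in the top 10% were 12.8% against 6.92%. The first share depends on density by construction. Among regions that stood alone, 15.6% were strong here and 11.2% on the other autosomes, and among regions with a neighbour 11.1% and 6.03%.

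Of the 50 isolated strong regions, 14 were in 1 list, 13 in 2, 14 in 3, 5 in 4 and 4 in every list. Those held by untreated lists 1 and 2 were 26 and 13, and those held by treated lists 1, 2 and 3 were 29, 42 and 12. The 5 in 4 lists were missing from treated list 3, the shortest. They include chromosome 4 at 116285914 to 116286442, with 34.4 and 9.20 without the drug and 63.7 and 41.7 in treated lists 1 and 2, where it was the highest peak of treated list 1 on these chromosomes. The most isolated of the 5 lay on chromosome 4 at 154447534 to 154447888, 1739 kb from any other region, and scored 23.8 and 15.2 without the drug against 32.2 and 14.1 for treated lists 1 and 2. On chromosome 18 the region at 22892526 to 22892905 had 23.6 and 9.53 without the drug and 51.95 and 18.9 in treated lists 1 and 2. The other two were on chromosome 4 at 167786907 to 167787290 (12.1, 10.6, 34.7 and 33.2 in the same lists) and at 67261749 to 67262100 (10.6, 22.5, 21.8 and 25.4).

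**Figure D4:**
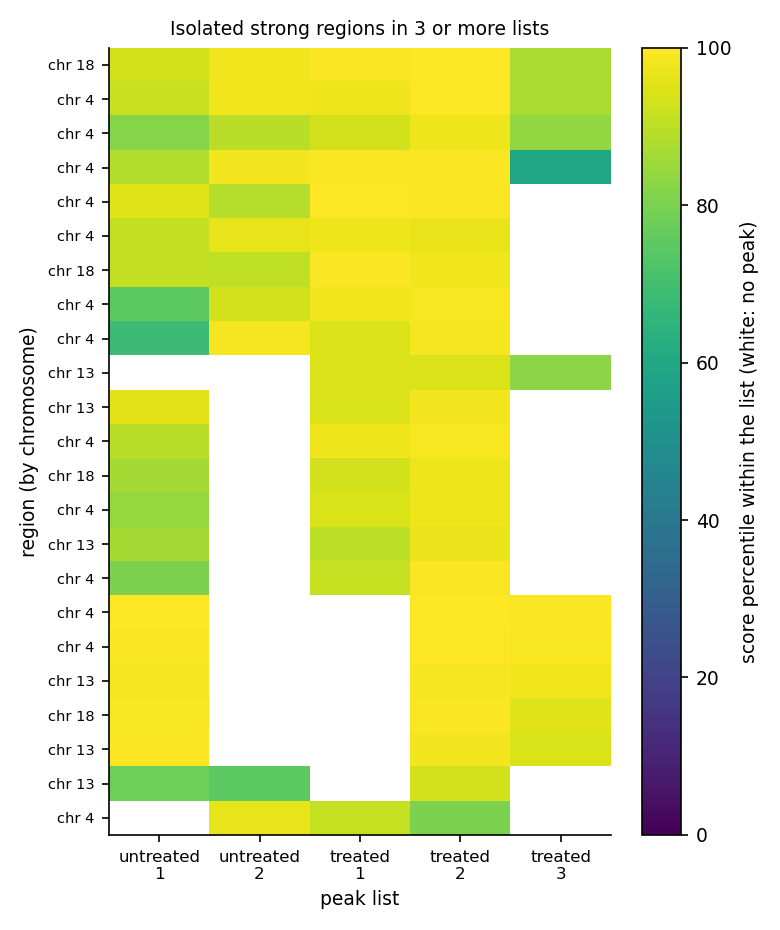
Score percentile within each list for the 23 isolated strong regions held by 3 or more lists, with 1 row per region, labelled by chromosome, rows grouped by the lists that hold them, and white where a list has no peak. The 4 rows at the top are filled in all lists, and 5 rows near the bottom are at a high percentile in untreated list 1, treated list 2 and treated list 3 and empty in untreated list 2 and treated list 1.

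A set of the strongest isolated regions followed neither treatment nor run identifier. It was noticed after the values were seen. The 5 regions in untreated list 1 and treated lists 2 and 3, and in neither untreated list 2 nor treated list 1, had mean percentiles of 97.3 to 99.7. On chromosome 4 at 116458265 to 116458665 scores were 105.1, 58.9 and 50.4 in untreated list 1 and treated lists 2 and 3. This was the highest score of untreated list 1 over the whole genome and ranked 4 in treated list 3. On chromosome 4 at 23703050 to 23703549 they were 73.7, 67.4 and 44.2, with no other region within 1374 kb. The other 3 were on chromosome 13 at 29573986 to 29574355 (57.2, 26.3 and 33.7) and 97693391 to 97693749 (75.3, 20.1 and 22.7), and on chromosome 18 at 55065447 to 55065952 (72.1, 46.1 and 24.5). Because no region of any list lay within 100 kb, untreated list 2 and treated list 1 had no peak near these sites, although treated list 1 held 4922 peaks.

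This combination of lists was also of high rank elsewhere. In the series 42 regions (0.251% of 16701) were held by exactly these 3 lists, with a median mean percentile of 95.0, and 21 of them had a mean percentile above 95. On chromosomes 4, 13 and 18 there were 7 (0.829% of 844), of which the 5 above were isolated and strong. By comparison the 153 regions held by untreated list 1 and treated lists 1 and 2 alone had a median of 82.2, with 18 above 95. These values describe the lists and were not tested.

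Other high scores were held by 1 list or a pair. The highest peak of untreated list 1 on chromosome 13, at 66334964 to 66335272, scored 83.6 and had a partner only in treated list 2, where the region scored 9.90. On chromosome 18 its highest peak, at 52566885 to 52567172, scored 75.3 and was in no other list. The highest peak of untreated list 2 on chromosome 13, at 22271759 to 22272100, scored 15.5 and was likewise in no other list. On chromosome 18 untreated list 2 and treated list 1 had their highest peaks in one region, at 76235325 to 76236239. Its scores were 38.8 and 27.2 without the drug and 54.7 and 52.7 in treated lists 1 and 2. The highest peak of treated list 1 on chromosome 13, in the region at 112687886 to 112688289, scored 34.7, against 8.06 in untreated list 2 and 19.8 and 11.2 in treated lists 2 and 3.

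The share of each list on these chromosomes was then compared between untreated and treated cells. It was 6.23% and 4.61% without the drug and 4.47%, 5.48% and 5.49% with it, or 5.42% ± 1.14 (SD, n = 2) against 5.15% ± 0.586 (SD, n = 3). The difference of -0.271 points was smaller than the spread among the untreated lists. Exact permutation of the treatment labels, two-sided and over 10 splits, gave p = 0.8, where the smallest possible is 0.2, and 0.9 after adjustment over 9 such tests. Within the pairs of lists with a common run identifier the difference was -1.76 points for untreated list 1 and treated list 1 and 0.882 points for untreated list 2 and treated list 3. The sign of the pooled value turned to 0.537 without untreated list 1 and to 0.0672 without treated list 1.

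Single chromosomes gave no separation of the groups either. Chromosome 4 made up 3.42% and 2.26% of lists without the drug and 2.15%, 2.16% and 3.41% with it, a difference of -0.262 points (exact permutation p = 0.4, adjusted 0.9). Without untreated list 1 it was 0.317. Chromosome 13 made up 0.951% and 0.736% of lists without it and 0.630%, 1.34% and 1.52% with it, a difference of 0.319 points (exact permutation p = 0.6, adjusted 0.9). Chromosome 18 had 1.86% and 1.62% without it and 1.69%, 1.98% and 0.568% with it, a difference of -0.328 points (exact permutation p = 1, adjusted 1) that was 0.0936 without treated list 3. In the run pairs, untreated list 1 with treated list 1 and then untreated list 2 with treated list 3, the differences were -1.26 and 1.15 points for chromosome 4, -0.321 and 0.779 for chromosome 13, and -0.173 and -1.05 for chromosome 18.

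**Figure D5:**
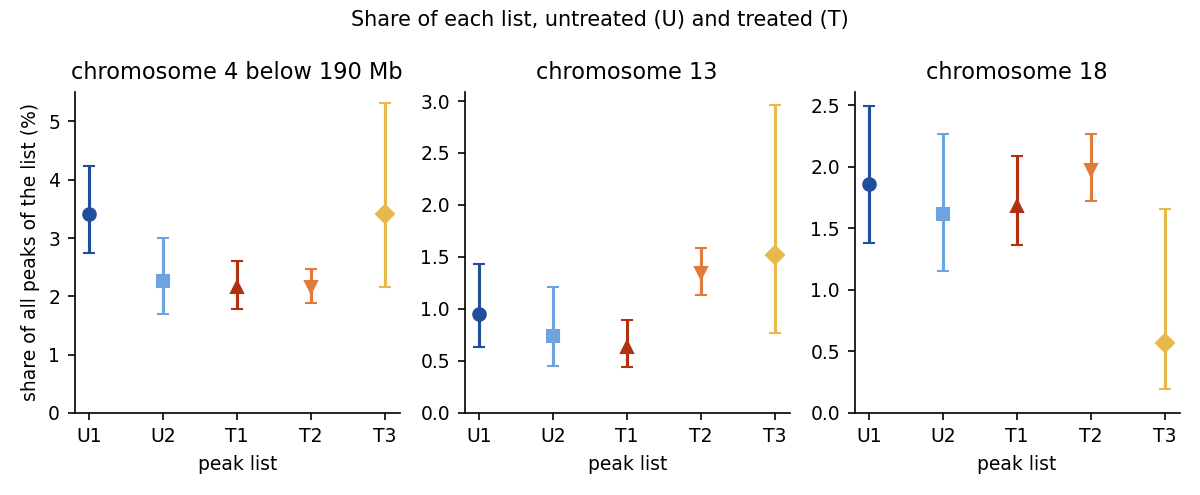
Percentage of all peaks of each list that lie on chromosome 4 below 190 Mb, chromosome 13 and chromosome 18, with 95% Wilson intervals that cover counting error only, for untreated lists 1 and 2 (U1, U2) and treated lists 1 to 3 (T1 to T3). The groups overlap on all 3 chromosomes, and treated list 3 has the widest intervals.

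Rank and centromeric share also overlapped between the groups. Median percentile was 74.4 ± 1.63 (SD, n = 2) without the drug and 64.5 ± 9.98 (SD, n = 3) with it, a difference of -9.94 (exact permutation p = 0.4, adjusted 0.9). In the run pairs the differences were -10.6 and 0.959, and at equal list lengths the pooled difference was 8.87. The share next to the centromeres was 23.3% ± 1.59 (SD, n = 2) and 15.5% ± 6.76 (SD, n = 3), a difference of -7.81 points (exact permutation p = 0.4, adjusted 0.9). The run pairs gave 0.960 and -14.1 points, the second resting on 3 peaks of treated list 3. At equal list lengths the difference was -0.892 points. The share of peaks in the top 10% differed by -1.65 points (exact permutation p = 0.8, adjusted 0.9), with 3.26 and -0.587 points in the run pairs and 1.34 points without treated list 2. Median width differed by -46.8 bp (exact permutation p = 0.6, adjusted 0.9), with 9.0 and -152.5 bp in the run pairs, and by 27.7 bp without untreated list 2. On the other autosomes median width also averaged less with the drug, 266.3 bp against 304.5 bp. In the second run pair the narrowest peak was 332 bp in untreated list 2 and 200 bp in treated list 3.

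Of the 38 stretches of 10 Mb, 3 held a larger share of each treated than of each untreated list (7.89%, against 6.07% of the 313 such stretches in the series). These were chromosome 4 from 10 to 20 Mb, with 0 and 0 untreated and 1, 8 and 1 treated peaks, and from 180 to 190 Mb, with 0 and 0 untreated and 5, 10 and 1 treated peaks. On chromosome 13 from 50 to 60 Mb untreated cells had 1 and 2 peaks and treated cells 10, 11 and 2. A smaller share in each treated list was found in 1 stretch (2.63%, against 5.75% in the series), on chromosome 18 from 20 to 30 Mb with 4 and 3 untreated and 5, 13 and 0 treated peaks. These shares are near the background, and the counts are small. They also moved with single lists. Higher stretches were 5, 8 and 5 without untreated list 1, treated list 1 and treated list 3, and lower ones were 11 without untreated list 2.

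Regions that followed the treatment labels were few. No region of the 844 was in both untreated and no treated list, where 0.186% of regions in the series were. In all 3 treated and no untreated list there were 2 (0.237%, against 0.24% in the series). One lay on chromosome 13 at 39067878 to 39068189, 310.6 kb from its nearest neighbour, and scored 21.9, 11.0 and 13.7. The second, on chromosome 4 at 182161928 to 182162305, scored 3.72, 3.94 and 10.5 and lay 0.285 kb from another region. Without treated list 3 there were 23 such regions, and 6 and 4 without treated lists 1 and 2. Regions in the untreated lists alone were 56 and 75 without untreated lists 1 and 2, when 1 untreated list defines them, and 4 and 1 without treated lists 1 and 2.

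Regions in at least 2 treated lists but in neither untreated one numbered 29 (3.44%, against 2.93% in the series). They include the 2 held by all 3 treated lists. By chromosome there were 16 on chromosome 4, 8 on chromosome 13 and 5 on chromosome 18. Of the 29, 21 were in treated lists 1 and 2 alone, the longest lists. Their median mean percentile was 81.8, and that of the 489 such regions in the series was 53.8. Higher medians here were not limited to treated lists. Regions of untreated list 1 alone had 63.4 against 41.4 in the series, and those of untreated list 2 alone 52.2 against 42.6. Lower here were regions in all 3 treated lists alone (61.7 against 62.8) and in untreated list 2 with treated lists 1 and 3 alone (47.3 against 47.7). The highest-ranked lay in the stretch beside the centromere of chromosome 4, at 49316923 to 49317244 (26.0 and 12.1 in treated lists 1 and 2). Next on chromosome 4 were the regions from 426339 to 426810 (19.1 and 19.8) and from 104639986 to 104640349 (15.6 and 13.8). On chromosome 13 they were those from 26662103 to 26662472 (20.4 and 13.8) and from 22337964 to 22338275 (17.3 and 12.5). Without treated list 1 the count was 6 and without treated list 2 it was 4, while without untreated list 1 it was 48.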

How the data were processed

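p300 chromatin immunoprecipitation libraries were sequenced on Ion Proton, per the labels' protocols. The submitters' processing notes name hg19 and MACS2. Aligner, MACS2 version, threshold and matched input are all not given in the sources used here. The authors deposited 1 list per library with start, end, name and a score whose scale is not named. Scores were therefore used to describe, rank or filter peaks within a list, and read depth is unknown. The exceptions are alternatives that put the same cut on all lists, at the pooled median of 5.90 or at the highest of the lists' minima, 3.04. Scores of different lists printed side by side are not on a known common scale. The lowest score was 3.04 in untreated list 1 and treated list 1, against 2.02 to 2.16 in the others, and the narrowest peak was 193 to 332 bp. Strings in the peak names were taken as run identifiers, although the labels do not say what these strings mark. Untreated list 1 shares one with treated list 1, and untreated list 2 shares one with treated list 3.

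Positions are counted from 1. Density used the span from first to last peak of any list, and the other 19 autosomes served as reference, and 138 peaks of chromosome 4 at or above 190 Mb entered neither side. Percentiles gave ties their mean rank. Alternatives were score filters, equal list lengths, other windows and references, each list left out, a replicate block and pairing by run identifier. The rule for named regions took every region in all 5 lists, in both untreated or all 3 treated lists alone, the 5 highest-ranked in 2 or more treated lists alone, the 10 highest-ranked isolated strong regions and each list's highest peak per chromosome. It also took the peaks nearest to 190 Mb and the fullest and emptiest stretch of 10 Mb. The members, windows and tests were chosen with earlier results of these data known, among them the low density of chromosomes 13 and 18, which is no independent support. The splits into successive 20% by score, the regions in 4 lists and the small groups of peaks were added after the values were seen. Region counting was tested only on simulated regions set far apart. Merging in dense stretches, such as that beside the centromere of chromosome 4, was not tested. Software was pandas 2.3.3, numpy 2.4.6 under Python 3.11.15, scipy 1.17.1, statsmodels 0.14.6 and matplotlib 3.10.9.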

Additional observations from a re-analysis of the deposited data

How the results depend on the processing

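The lower density, the excess beside the centromeres, the higher rank and the higher share in the top 10% of a list kept their direction under every alternative run. The log2 density ratio ran from -1.61 without the centromeric windows to -0.42 with 528 peaks per list, where treated list 3 was not cut. Of 263 alternative values of 25 results, 214 lay on the same side of 0, or within 1.5-fold of a count, while 33 moved more and 16 changed sign. The exact permutation test used cannot fall below p = 0.2 with 2 against 3 lists.

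With equal numbers of top-scoring peaks, treated minus untreated was -0.41 points for the share of chromosome 13, -4.56 for the outer 5 Mb, 8.87 for the median percentile and 2.56 for the top 10%. Counts then were 57 regions in 2 or more lists, 2 in both untreated lists alone, 1 in all treated lists alone, 7 in 2 or more treated lists alone, 17 isolated strong regions, and 0 higher and 2 lower stretches of 10 Mb. With scores at or above the pooled median of 5.90, the differences were -0.18 for the outer 5 Mb and 3.68 for the top 10%, and counts were 1 region in all treated lists alone, 18 in 2 or more treated lists alone and 6 lower stretches. Both settings hold fewer peaks, though equal numbers leave treated list 3 uncut. Isolated strong regions numbered 32 with the top 5% and 98 with the top 20%, and 5 Mb stretches gave 4 lower ones.

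The replicate block gave 0.0936 points for chromosome 18, reversed, and changed no other direction. The labels do not say what a number marks, and lists numbered 1, unlike those numbered 2, have a run identifier in common. Deviations of same-numbered lists from their group mean, over 313 stretches of 10 Mb, had correlations of 0.35 and 0.63. With 2 untreated lists, their deviations are equal and opposite. Both correlations therefore use the same untreated values, with the sign turned, and are not 2 separate results. Pairing by run identifier gave -2.25 points for the outer 5 Mb and 1.34 for the top 10%.

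Leaving out 1 list moved treated minus untreated from -1.08 to 0.537 points for the share of the 3 chromosomes, -0.842 to 0.317 for chromosome 4, -0.612 to 0.0936 for chromosome 18, -2.25 to 6.91 for the outer 5 Mb, -4.00 to 1.34 for the top 10% and -121.3 to 27.7 bp for width. Counts ran from 67 to 100 regions in 2 or more lists, 5 to 22 in all lists, 0 to 75 in the untreated lists alone, 3 to 23 in all treated lists alone, 4 to 48 in 2 or more treated lists alone, and 3 to 8 higher and 3 to 11 lower stretches, since fewer lists then define each set.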
